A study of Homo sapiens with 8 samples.

Results

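Homologous recombination and Fanconi genes were followed in the messenger RNA of 2 human neuroblastoma cell lines, NGP and CHLA-20, after inhibition of the arginine methyltransferase PRMT5. The set holds 35 genes chosen by symbol, and each of them matched 1 of the 58721 gene identifiers in the count files through GENCODE release 29. There were 8 libraries in 4 groups of 2: NGP cells with JSK591, NGP cells with the vehicle DMSO, CHLA-20 cells with JSK591, and CHLA-20 cells with DMSO, all collected after 6 days. The inhibitor is JSK591 in the sample names but GSK591 in the text on treatment, and its dose is stated only as an IC50. NGP grew in RPMI1640 and CHLA-20 in IMEM with insulin, transferrin and selenite, both with serum, so that line and medium cannot be told apart. Each line is a single tumour-derived line with no genetic change introduced. The labels do not say that the libraries of a group came from separate cultures, so p-values measure the spread between these libraries, which may be technical.

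Homologous recombination copies a broken DNA molecule from its sister chromatid and is used mainly in S and G2 phase. Broken ends are sensed by the MRE11-RAD50-NBN complex and cut back to single strands. BRCA1 with BARD1, bridged by PALB2 to BRCA2, then prepares the single strand for pairing with the sister, and a group of paralogs (RAD51B, RAD51C, RAD51D, XRCC2 and XRCC3) and the RAD54 proteins assist strand exchange. The Fanconi pathway handles crosslinks between DNA strands: a core complex with the E3 ligase FANCL and the E2 enzyme UBE2T ubiquitinates the FANCI-FANCD2 clamp, which brings in nucleases held by SLX4. ATM and ATR signal breaks and stalled forks through CHEK2 and CHEK1. Neuroblastoma is a childhood tumour of the sympathetic nervous lineage.

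Many recombination genes are transcribed around the start of S phase through E2F sites, and the promoters of the 35 genes were therefore searched for E2F letters. RefSeq windows of 250 bases before to 50 bases after a start (GRCh38.p14) were found for 32 of the 35 genes, and none for NBN, RAD54B and FANCI. The letters searched on both strands were TTTCCCGC, TTTGGCGC, TTCCCGCC and TTTCGCGC. TTTCCCGC and TTCCCGCC overlap, so 1 run of 9 bases can match both. Of the 32 genes, 11 held a match (34.4%), against 6.03% of the 27305 genes with such a window in the whole table. The CCAAT box, CCAAT on either strand, was in 14 of 32 (43.8%, against 39.7% of all genes), and the CHR letters TTTGAA in 4 of 32 (12.5%, against 18.2%). Some genes have several windows, and 13 of the 44 windows of these genes held a match. For each of the 11 genes, only the first window with a match is listed, which gave 13 stretches. They follow on the strand of the gene, with the matched bases in capitals. The likeness of the capitals was set by the search. The position of the first capital is counted in bases from the start that the RefSeq window uses, negative before it. That start can lie far inside the gene as GENCODE annotates it, as in FANCC and RAD52.
BLM, chr15:90717261-90717288, plus strand, first capital at -75: agcctgagggGGCGGGAAcagatgtccg
BLM, chr15:90717338-90717365, plus strand, first capital at 2: gcaagcttccGGCGGGAAgtgagccagg
BRIP1, chr17:61863510-61863537, minus strand, first capital at 1: gggggcgggaGGCGGGAAttcgtctcgg
EXO1, chr1:241848198-241848225, plus strand, first capital at 4: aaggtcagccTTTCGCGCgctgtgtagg
FANCC, chr9:95317864-95317891, minus strand, first capital at -172: cggggcttccGCGCGAAAccgggaacac
FANCC, chr9:95317738-95317765, minus strand, first capital at -46: tcgtcggaatTTTCCCGCgacgccgcgg
FANCD2, chr3:10026424-10026452, plus strand, first capital at -3: cgtcgggcctGGCGGGAAAgtcgaaaact
FANCL, chr2:58241407-58241434, minus strand, first capital at -99: ctccaggatcTTCCCGCCaaggctgggg
RAD51AP1, chr12:4538858-4538885, plus strand, first capital at -22: tctggttttgGGCGGGAAttgaaaccgc
RAD52, chr12:949912-949939, minus strand, first capital at -235: gagggaagctGGCGGGAAgtaggaggca
RAD54L, chr1:46247629-46247656, plus strand, first capital at -49: cgcagcactaTTCCCGCCtcttccttgg
XRCC2, chr7:152676103-152676131, minus strand, first capital at 20: tggcgttggtGGCGGGAAAgttgagtctc
XRCC3, chr14:103715437-103715464, minus strand, first capital at -3: ggagcaggacGGCGGGAAgaggagtgcg
A match describes letters in a window and not a bound site. Of the 11 genes with a match, JSK591 left 5 higher, 2 lower and 4 past no threshold in NGP, and 6 higher, none lower and 5 past no threshold in CHLA-20. Of the 21 genes with a window and no match, it left 5 higher, 9 lower and 7 past no threshold in NGP, and 7 higher, 7 lower and 7 past no threshold in CHLA-20. Over all genes tested, 16.8% rose and 19.4% fell in NGP, and 16.9% rose and 22.4% fell in CHLA-20. These counts are a description without a test.

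Whole windows are shown for 3 genes on which later results turn: XRCC2, which rose in both lines, EXO1, which moved in opposite directions, and FANCE, which fell furthest. All are in lower case on the strand of the gene, with E2F, CHR and CCAAT matches in capitals.
XRCC2, chr7:152676092-152676391, minus strand: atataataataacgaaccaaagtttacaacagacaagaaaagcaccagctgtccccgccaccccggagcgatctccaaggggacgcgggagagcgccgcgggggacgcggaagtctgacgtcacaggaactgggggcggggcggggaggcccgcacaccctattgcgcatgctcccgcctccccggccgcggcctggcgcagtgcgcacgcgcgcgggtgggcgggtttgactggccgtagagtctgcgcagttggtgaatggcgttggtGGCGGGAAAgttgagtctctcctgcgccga
EXO1, chr1:241847954-241848253, plus strand: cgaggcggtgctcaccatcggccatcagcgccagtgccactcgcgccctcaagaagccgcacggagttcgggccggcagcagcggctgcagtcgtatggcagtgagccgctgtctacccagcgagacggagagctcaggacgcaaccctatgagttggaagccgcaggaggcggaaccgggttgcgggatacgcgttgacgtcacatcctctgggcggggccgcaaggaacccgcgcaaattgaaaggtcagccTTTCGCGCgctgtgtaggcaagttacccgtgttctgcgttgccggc
FANCE, chr6:35452088-35452387, plus strand: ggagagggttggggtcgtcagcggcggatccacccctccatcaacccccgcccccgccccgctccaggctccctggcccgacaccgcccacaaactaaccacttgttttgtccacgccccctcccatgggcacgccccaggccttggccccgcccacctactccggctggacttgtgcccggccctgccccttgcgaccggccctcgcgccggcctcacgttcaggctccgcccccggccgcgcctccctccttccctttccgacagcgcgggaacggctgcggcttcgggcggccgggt
Counted from the RefSeq start, the E2F match began at 20 in XRCC2 and at 4 in EXO1. Both lay in the last 50 bases of the window. In the FANCE window none of the searched letters were present. None were present either in the windows of BRCA2, which rose in both lines, and BARD1, which fell in both. The other window of EXO1, not shown, also held none. That says nothing about which factors bind there.

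All 35 genes were expressed in every library and passed the filter on low counts, with 154 counts (RAD51B) to 5093 counts (UBE2T) in a library. Libraries held 33188542 to 34914902 counts assigned to genes, and a count of 0 would allow at most 0.0904 CPM (counts scaled to the library size). As a check of the labels, 7 of 8 adrenergic neuroblastoma markers were detected, with CHGA at 0 or 1 count. Reads that overlapped several genes or mapped to several places were left out of gene counts, so this does not show CHGA to be absent. The CPM of these markers summed to 2055 and 2053 in NGP JSK591, against 2024 and 2173 in NGP DMSO, and to 2996 and 2911 in CHLA-20 JSK591, against 3747 and 3876 in CHLA-20 DMSO, where 6 of the 7 tested markers fell and 1 rose. TH and DBH, enzymes of catecholamine synthesis, were below 1 CPM in NGP and above 45 CPM in CHLA-20. Markers of blood cells summed to at most 0.533 CPM and those of epithelium to at most 5.09 CPM in a library. Fibroblast and Schwann cell markers, several of which neuroblastoma lines also express, summed to 654 to 692 CPM in NGP JSK591 and 578 to 599 CPM in NGP DMSO. They summed to 418 to 423 CPM in CHLA-20 JSK591 and 489.6 to 489.9 CPM in CHLA-20 DMSO. The sums hide single markers. Of the 8, 2 were called higher and 6 lower in NGP DMSO than in CHLA-20 DMSO (median log2 -2.90), where 36.6% and 38.9% of all genes tested were. With JSK591, 1 rose and 2 fell in NGP (16.8% and 19.4% of all genes), and 1 rose and 3 fell in CHLA-20 (16.9% and 22.4%). The part of these markers in the results was not tested.

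Levels of different genes were compared as CPM per kilobase of exon. UBE2T, the E2 enzyme of the Fanconi core, was highest in all 4 groups, at 64.0 CPM per kilobase in NGP JSK591, 61.3 in NGP DMSO, 83.5 in CHLA-20 JSK591 and 89.5 in CHLA-20 DMSO. EXO1, the exonuclease that extends resection, followed at 27.2, 32.3, 25.3 and 22.5 CPM per kilobase in the same groups. RAD51B was lowest in NGP JSK591 at 0.612 CPM per kilobase and in both CHLA-20 groups, at 0.615 with JSK591 and 0.731 with DMSO, and RAD50 was lowest in NGP DMSO at 0.86. RAD50 is an uncertain value, because 79.7% of its exonic bases overlap another annotated gene, where the deposited counting may discard or split reads. The overlap was 76.7% in XRCC3, 59.1% in RAD54B, 25.1% in RAD54L and 23.6% in FANCA, and at most 20% in the other 30 genes.

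**Figure D1:**
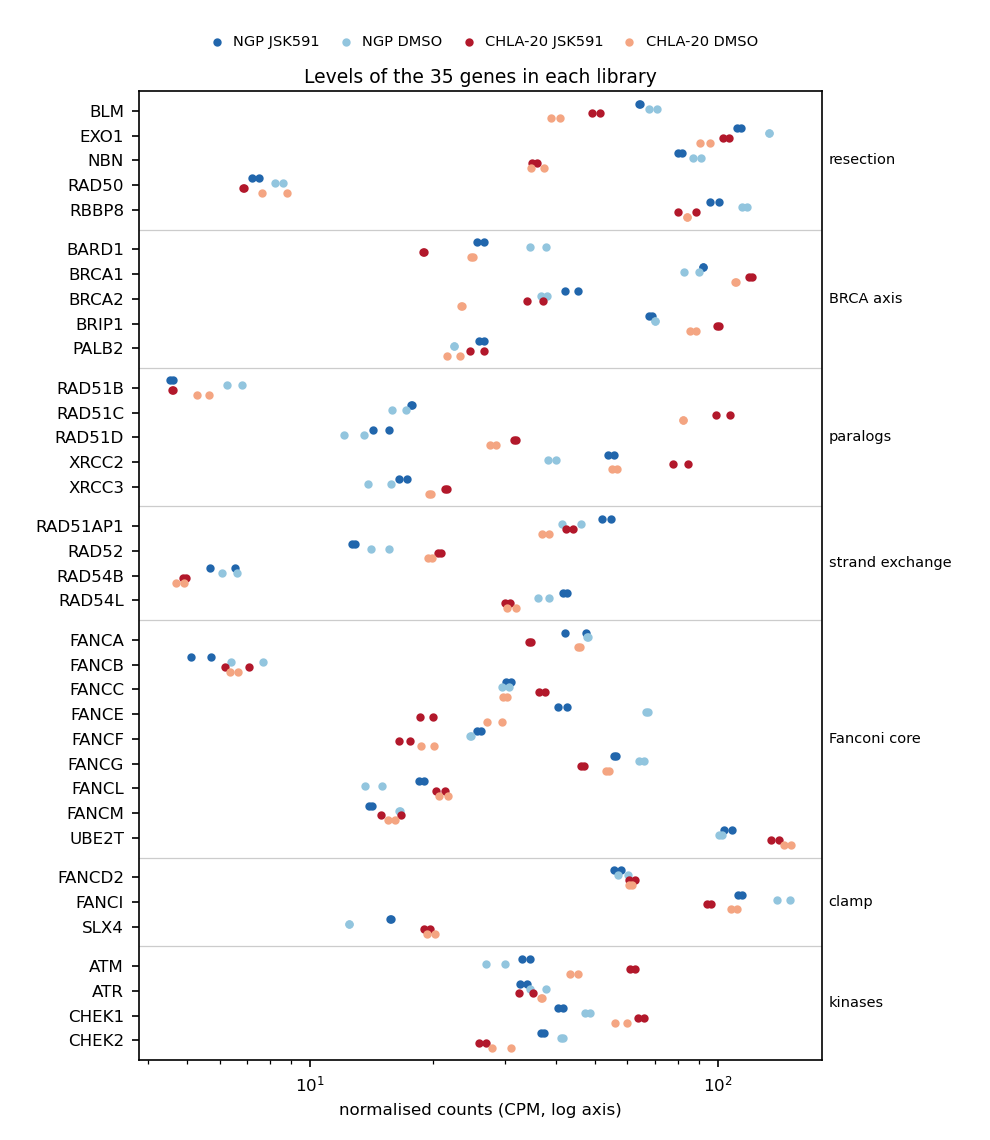
Normalised counts (CPM, log axis) of the 35 genes, grouped by role, with 1 point per library and 2 libraries in each of the 4 groups. Libraries of a group lie close together, RAD51C, RAD51D, NBN and FANCE separate the lines most, and the distances between JSK591 and DMSO are smaller.

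JSK591 changed the level of most of these genes in at least 1 line, in both directions and by less than 2-fold. In NGP, 10 of the 35 genes rose and 13 fell with JSK591, at an adjusted p under 0.05 in edgeR's quasi-likelihood test over all 19395 genes tested; in the background, 16.8% of all genes tested rose and 19.4% fell (36.2% in either direction). In CHLA-20, 13 rose and 8 fell, where 16.9% of all genes rose and 22.4% fell (39.4%). None of the 35 passed both that threshold and a 2-fold change, which 3.57% of all genes did in NGP and 3.93% in CHLA-20. Log2 changes of the members ran from -0.69 to 0.48 in NGP, with a median of -0.054 against 0.0004 over all genes. In CHLA-20 they ran from -0.55 to 0.60, with a median of 0.0091 against -0.02. The medians near 0 combine rises and falls. The standard errors of the members were small beside this range, with a median of 0.056 in NGP and 0.058 in CHLA-20. The median over all genes tested was larger, at 0.10 in NGP and 0.098 in CHLA-20. The part of this precision in the number of members called was not tested. Libraries with JSK591 did not overlap those with DMSO for 32 of the 35 genes in NGP, 14 above and 18 below, where 65.3% of all genes did not overlap. In CHLA-20 they did not overlap for 26, 15 above and 11 below, where 66.6% did not. Left out in turn, NGP JSK591 replicate 1 reduced the rises in NGP from 10 to 6, CHLA-20 JSK591 replicate 2 those in CHLA-20 from 13 to 8, and NGP DMSO replicate 1, NGP DMSO replicate 2 or NGP JSK591 replicate 1 the falls in CHLA-20 from 8 to 5. Without NGP JSK591 replicate 1 the NGP median was -0.12.

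**Figure D2:**
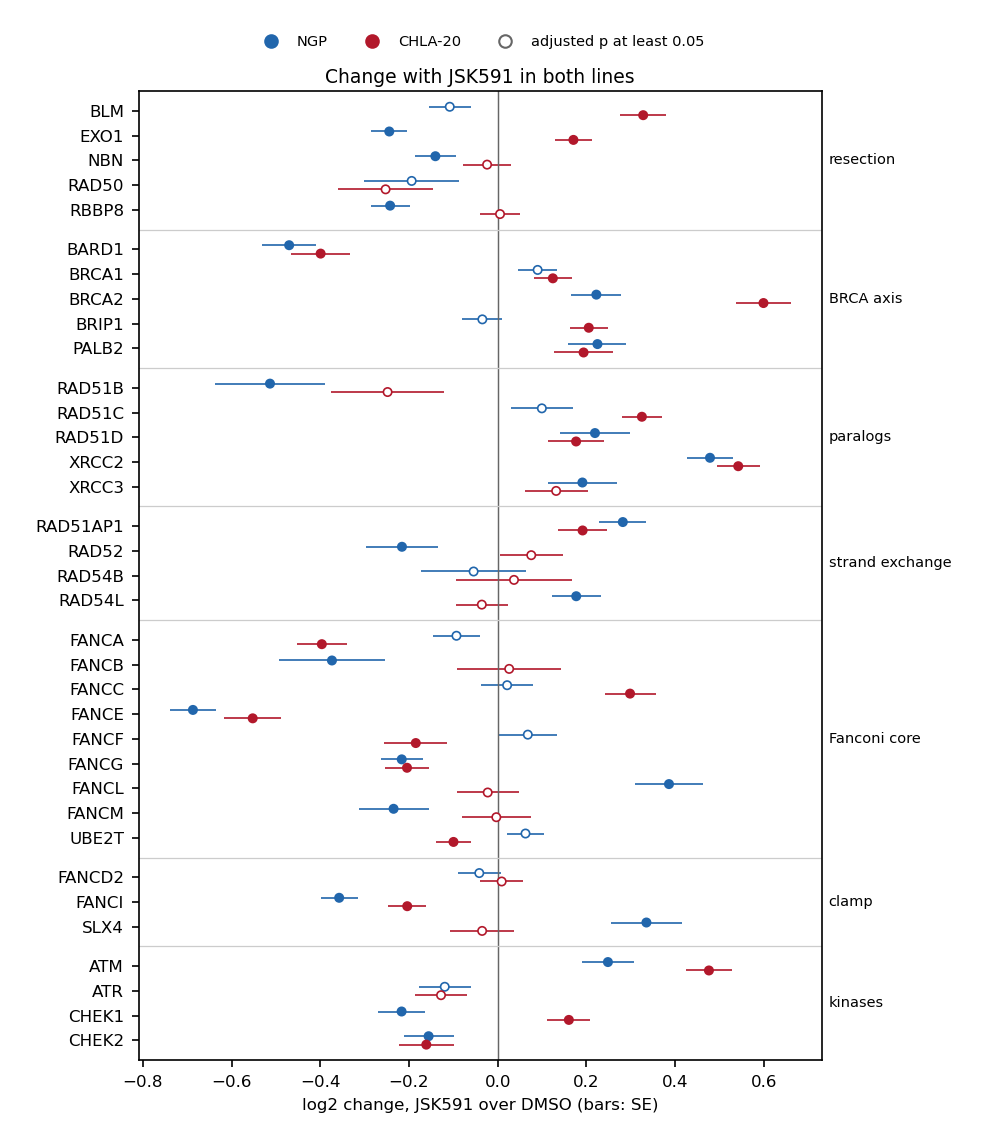
Log2 change with JSK591 over DMSO for each gene in NGP (blue) and CHLA-20 (red), by role; bars are standard errors, filled points have an adjusted p under 0.05. XRCC2, BRCA2 and ATM stand at the right, FANCE and BARD1 at the left, and EXO1, BLM and CHEK1 have points on both sides of 0.

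Genes that start repair by sensing and cutting back the ends fell or did not pass in NGP and rose or did not pass in CHLA-20. Of the 5, 3 fell and none rose in NGP (medians over the 5 of -0.19 in NGP and 0.0054 in CHLA-20), and 2 rose and none fell in CHLA-20, where 19.4% of all genes tested fell in NGP and 16.9% rose in CHLA-20. EXO1 was at 111 and 114 CPM in NGP JSK591, against 134 and 133 CPM in NGP DMSO. EXO1 was at 103 and 107 CPM in CHLA-20 JSK591, against 95.5 and 90.5 CPM in CHLA-20 DMSO. Every NGP JSK591 library was below, and every CHLA-20 JSK591 library above, the DMSO libraries of its line. The changes were log2 -0.24 ± 0.041 (SE, adjusted p = 1.85e-06) in NGP and log2 0.17 ± 0.043 (SE, adjusted p = 0.000769) in CHLA-20. BLM, the helicase that unwinds ends for resection and dissolves joint molecules, was at 64.5 and 64.0 CPM in NGP JSK591, against 70.7 and 67.8 CPM in NGP DMSO. BLM was at 51.4 and 49.1 CPM in CHLA-20 JSK591, against 41.1 and 38.9 CPM in CHLA-20 DMSO. Its rise in CHLA-20 passed (log2 0.33 ± 0.052 SE, adjusted p = 3.82e-07) and its value in NGP did not (log2 -0.11 ± 0.048 SE, adjusted p = 0.0692). RBBP8 encodes CtIP, which starts resection together with the MRE11 complex. It was at 95.4 and 101 CPM in NGP JSK591, against 118 and 114 CPM in NGP DMSO (log2 -0.24 ± 0.044 SE, adjusted p = 7.86e-06). RBBP8 was at 79.8 and 88.4 CPM in CHLA-20 JSK591, against 83.8 and 83.8 CPM in CHLA-20 DMSO, where the JSK591 libraries lay on either side of DMSO. NBN, another subunit of that complex, fell in NGP, with 81.6 and 79.8 CPM in NGP JSK591, against 90.9 and 87.0 CPM in NGP DMSO (log2 -0.14, adjusted p = 0.0112), and not in CHLA-20 (-0.024, adjusted p = 0.78). RAD50 was at 7.19 and 7.50 CPM in NGP JSK591, against 8.2 and 8.60 CPM in NGP DMSO. RAD50 was at 6.90 and 6.87 CPM in CHLA-20 JSK591, against 8.76 and 7.64 CPM in CHLA-20 DMSO, and passed in neither line (adjusted p = 0.155 in NGP and 0.0563 in CHLA-20). Once the trend with GC content was removed, its CHLA-20 value was -0.29 and passed (adjusted p = 0.0266). MRE11, the nuclease of the complex and outside the 35 genes, was at 52.8 and 50.1 CPM in NGP JSK591, against 51.8 and 48.4 CPM in NGP DMSO. MRE11 was at 45.2 and 45.9 CPM in CHLA-20 JSK591, against 45.4 and 45.2 CPM in CHLA-20 DMSO, with log2 changes of 0.039 and 0.0079 that did not pass. The NGP fall of NBN did not pass without NGP DMSO replicate 1 (-0.14, adjusted p = 0.0563) or NGP JSK591 replicate 2 (-0.12, adjusted p = 0.106). BLM in NGP passed without NGP DMSO replicate 2 (-0.15, adjusted p = 0.0394) or CHLA-20 DMSO replicate 2 (-0.13, adjusted p = 0.0279), and RAD50 in CHLA-20 passed without CHLA-20 DMSO replicate 2 (-0.32, adjusted p = 0.0464).

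Along the chain from BRCA1 to BRCA2, the mediator rose and the partner of BRCA1 fell in both lines. BRCA2, the central mediator of recombination, was at 45.3 and 42.2 CPM in NGP JSK591, against 38.1 and 36.9 CPM in NGP DMSO. BRCA2 was at 34.1 and 37.2 CPM in CHLA-20 JSK591, against 23.5 and 23.5 CPM in CHLA-20 DMSO. The groups did not overlap in either line, and the CHLA-20 JSK591 libraries lay near the NGP DMSO level. The changes were 1.17-fold in NGP (log2 0.22 ± 0.056 SE, adjusted p = 0.00104) and 1.52-fold in CHLA-20 (log2 0.60 ± 0.061 SE, adjusted p = 1.92e-12), which was the largest rise of the 35 genes there. BARD1 forms with BRCA1 a ubiquitin ligase in which each stabilises the other protein. It was at 25.7 and 26.6 CPM in NGP JSK591, against 34.6 and 37.9 CPM in NGP DMSO. BARD1 was at 18.9 and 19.0 CPM in CHLA-20 JSK591, against 25.1 and 24.8 CPM in CHLA-20 DMSO. All 4 JSK591 libraries were below DMSO, by log2 -0.47 ± 0.061 (SE, adjusted p = 3.81e-09) in NGP and log2 -0.40 ± 0.067 (SE, adjusted p = 1.4e-06) in CHLA-20. BRCA1 itself was at 91.8 and 91.8 CPM in NGP JSK591, against 90.0 and 82.5 CPM in NGP DMSO. BRCA1 was at 121 and 119 CPM in CHLA-20 JSK591, against 109.9 and 110.5 CPM in CHLA-20 DMSO. Its rise passed in CHLA-20 (log2 0.12 ± 0.042 SE, adjusted p = 0.014) and not in NGP (log2 0.09 ± 0.044 SE, adjusted p = 0.104). In NGP it was 0.12 and passed with total count scaling (adjusted p = 0.0407). It also passed there with at least 10 counts in every library (0.11, adjusted p = 0.0409) or the GC trend removed (0.11, adjusted p = 0.0393). The difference of BRCA1 between the lines did not pass (-0.034, adjusted p = 0.738). PALB2, the bridge between BRCA1 and BRCA2, rose in both, with 26.0 and 26.6 CPM in NGP JSK591, against 22.6 and 22.5 CPM in NGP DMSO (log2 0.23 ± 0.065 SE, adjusted p = 0.00455). PALB2 was at 24.7 and 26.8 CPM in CHLA-20 JSK591, against 23.4 and 21.7 CPM in CHLA-20 DMSO (log2 0.19 ± 0.066 SE, adjusted p = 0.0141). BRIP1, the BRCA1-bound helicase also known as FANCJ, was at 69.0 and 67.9 CPM in NGP JSK591, against 70.1 and 70.1 CPM in NGP DMSO (log2 -0.035 ± 0.045 SE, adjusted p = 0.598). BRIP1 was at 99.4 and 100.5 CPM in CHLA-20 JSK591, against 88.1 and 85.2 CPM in CHLA-20 DMSO (log2 0.21 ± 0.043 SE, adjusted p = 6.86e-05), so that only the CHLA-20 change passed. Without NGP JSK591 replicate 1 the NGP rise of BRCA2 was 0.15 (adjusted p = 0.107). The rise of PALB2 did not pass in NGP without NGP DMSO replicate 1 (0.20, adjusted p = 0.0541), nor in CHLA-20 without DMSO replicate 2 (0.17, adjusted p = 0.116) or JSK591 replicate 2 (0.14, adjusted p = 0.207). That of BRCA1 in CHLA-20 passed in 12 of 16 alternatives and not without DMSO replicate 1 (0.12, adjusted p = 0.0714), JSK591 replicate 1 (0.12, adjusted p = 0.0983) or JSK591 replicate 2 (0.14, adjusted p = 0.0528).

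**Figure D3:**
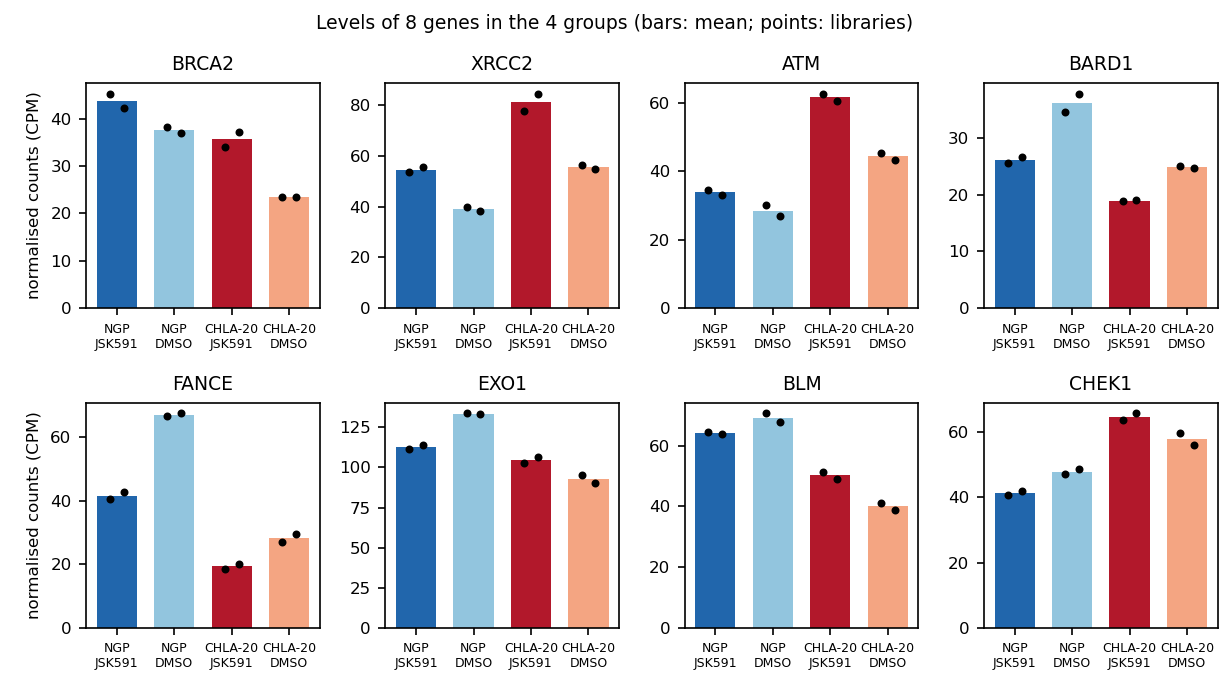
Normalised counts (CPM, axis from 0) of 8 genes in the 4 groups; bars are means of 2 libraries and points the libraries. With JSK591, BRCA2, XRCC2 and ATM were higher and BARD1 and FANCE lower in both lines, EXO1 and CHEK1 were lower in NGP and higher in CHLA-20, and BLM was higher in CHLA-20, while its NGP change did not pass.

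Among the 5 paralogs RAD51B, RAD51C, RAD51D, XRCC2 and XRCC3, which act as complexes in strand exchange, XRCC2 rose in both lines and RAD51B fell in NGP. XRCC2 was at 53.8 and 55.5 CPM in NGP JSK591, against 40.1 and 38.3 CPM in NGP DMSO. XRCC2 was at 77.7 and 84.7 CPM in CHLA-20 JSK591, against 56.4 and 55.0 CPM in CHLA-20 DMSO. Every JSK591 library was above DMSO, by log2 0.48 ± 0.052 (SE, adjusted p = 2.87e-11) in NGP and log2 0.54 ± 0.048 (SE, adjusted p = 1.6e-14) in CHLA-20, and both calls passed in all 16 alternatives. RAD51B was at 4.62 and 4.53 CPM in NGP JSK591, against 6.80 and 6.26 CPM in NGP DMSO, a fall of log2 -0.51 ± 0.12 (SE, adjusted p = 0.000602). In CHLA-20 its libraries were at 4.59 and 4.61 CPM in CHLA-20 JSK591, against 5.65 and 5.27 CPM in CHLA-20 DMSO, in the same order but without passing (log2 -0.25 ± 0.13 SE, adjusted p = 0.119). RAD51C, a subunit of several of these complexes, was at 17.8 and 17.7 CPM in NGP JSK591, against 17.2 and 15.9 CPM in NGP DMSO, with no change that passed (log2 0.10 ± 0.07 SE, adjusted p = 0.283). Its CHLA-20 libraries stood at a far higher level, 98.8 and 107 CPM in CHLA-20 JSK591, against 81.8 and 82.3 CPM in CHLA-20 DMSO, and rose with JSK591 (log2 0.33 ± 0.046 SE, adjusted p = 2.58e-08). RAD51D, which binds XRCC2, rose in both lines, with 15.6 and 14.2 CPM in NGP JSK591, against 13.6 and 12.1 CPM in NGP DMSO (log2 0.22 ± 0.08 SE, adjusted p = 0.0245). RAD51D was at 32.0 and 31.6 CPM in CHLA-20 JSK591, against 28.6 and 27.6 CPM in CHLA-20 DMSO (log2 0.18 ± 0.063 SE, adjusted p = 0.0204). XRCC3, a partner of RAD51C, was at 17.3 and 16.5 CPM in NGP JSK591, against 13.9 and 15.8 CPM in NGP DMSO (log2 0.19, adjusted p = 0.0456). XRCC3 was at 21.4 and 21.7 CPM in CHLA-20 JSK591, against 19.6 and 19.8 CPM in CHLA-20 DMSO (log2 0.13, adjusted p = 0.141), and with the GC trend removed its CHLA-20 change was 0.35 (adjusted p = 1.58e-05). The rise of RAD51D passed in 11 of 16 alternatives in each line, and not without NGP DMSO replicate 2 (0.12, adjusted p = 0.368) or NGP JSK591 replicate 1 (0.13, adjusted p = 0.371). In CHLA-20 it did not pass without DMSO replicate 2 (0.18, adjusted p = 0.0753), JSK591 replicate 1 (0.17, adjusted p = 0.107) or JSK591 replicate 2 (0.19, adjusted p = 0.0671). That of XRCC3 in NGP passed in 6 of 16 (0.073 to 0.27), with 6 of the 8 single libraries deciding it.

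Of the other 4 proteins that help in strand exchange, RAD51AP1, which promotes joint molecules, rose in both lines. It was at 52.1 and 54.6 CPM in NGP JSK591, against 46.1 and 41.6 CPM in NGP DMSO. RAD51AP1 was at 42.3 and 44.0 CPM in CHLA-20 JSK591, against 38.5 and 37.1 CPM in CHLA-20 DMSO. JSK591 libraries did not overlap DMSO in either line, and the changes were log2 0.28 ± 0.053 (SE, adjusted p = 1.6e-05) in NGP and log2 0.19 ± 0.056 (SE, adjusted p = 0.00391) in CHLA-20. RAD54L, a translocase on double-stranded DNA, was at 41.8 and 42.6 CPM in NGP JSK591, against 38.4 and 36.1 CPM in NGP DMSO (log2 0.18 ± 0.055 SE, adjusted p = 0.00821). RAD54L was at 30.9 and 30.0 CPM in CHLA-20 JSK591, against 31.9 and 30.5 CPM in CHLA-20 DMSO (log2 -0.036 ± 0.059 SE, adjusted p = 0.68). RAD52, an annealing protein, was at 12.7 and 12.9 CPM in NGP JSK591, against 15.6 and 14.1 CPM in NGP DMSO (log2 -0.22 ± 0.08 SE, adjusted p = 0.0289). RAD52 was at 20.9 and 20.6 CPM in CHLA-20 JSK591, against 19.5 and 19.9 CPM in CHLA-20 DMSO (log2 0.076 ± 0.071 SE, adjusted p = 0.434). RAD54B, a relative of RAD54L, was at 6.55 and 5.67 CPM in NGP JSK591, against 6.62 and 6.08 CPM in NGP DMSO. RAD54B was at 4.88 and 4.97 CPM in CHLA-20 JSK591, against 4.91 and 4.68 CPM in CHLA-20 DMSO, and passed in neither. Single libraries decided several of these calls. RAD51AP1 in CHLA-20 without JSK591 replicate 2 (0.17, adjusted p = 0.0707) no longer passed. Nor did RAD54L in NGP without DMSO replicate 2 (0.12, adjusted p = 0.192), JSK591 replicate 1 (0.17, adjusted p = 0.0572) or JSK591 replicate 2 (0.17, adjusted p = 0.0635), nor RAD52 in NGP without DMSO replicate 1 (-0.17, adjusted p = 0.214), JSK591 replicate 1 (-0.23, adjusted p = 0.0815) or JSK591 replicate 2 (-0.22, adjusted p = 0.0899).

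The Fanconi core complex had falls of single subunits in both lines. Of its 9 genes with the E2 enzyme, 1 rose and 4 fell in NGP, and 1 rose and 5 fell in CHLA-20. The shares of all genes tested were 16.8% rising and 19.4% falling in NGP, and 16.9% and 22.4% in CHLA-20. FANCE, the subunit that contacts FANCD2, fell most of all 35 genes in both lines. It was at 40.6 and 42.6 CPM in NGP JSK591, against 66.5 and 67.4 CPM in NGP DMSO. FANCE was at 18.6 and 20.1 CPM in CHLA-20 JSK591, against 27.1 and 29.5 CPM in CHLA-20 DMSO. The JSK591 libraries were all below DMSO, 0.621-fold in NGP (log2 -0.69 ± 0.052 SE, adjusted p = 7.66e-17) and 0.682-fold in CHLA-20 (log2 -0.55 ± 0.065 SE, adjusted p = 1.33e-10), in all 16 alternatives. FANCG, a structural subunit, fell in both lines, with 56.4 and 55.6 CPM in NGP JSK591, against 66.0 and 64.1 CPM in NGP DMSO (log2 -0.22 ± 0.048 SE, adjusted p = 0.000192). FANCG was at 46.1 and 46.9 CPM in CHLA-20 JSK591, against 54.0 and 53.2 CPM in CHLA-20 DMSO (log2 -0.20 ± 0.05 SE, adjusted p = 0.000592). FANCA, which binds FANCG, was at 47.5 and 42.1 CPM in NGP JSK591, against 47.9 and 47.8 CPM in NGP DMSO, without passing (log2 -0.093 ± 0.054 SE, adjusted p = 0.18). FANCA was at 34.8 and 34.5 CPM in CHLA-20 JSK591, against 45.3 and 45.8 CPM in CHLA-20 DMSO, a fall of log2 -0.40 ± 0.056 (SE, adjusted p = 2.4e-08). FANCL, the E3 ligase of the complex, rose in NGP, with 18.5 and 19.0 CPM in NGP JSK591, against 15.1 and 13.6 CPM in NGP DMSO (log2 0.39 ± 0.076 SE, adjusted p = 3.17e-05). FANCL was at 20.4 and 21.4 CPM in CHLA-20 JSK591, against 20.7 and 21.8 CPM in CHLA-20 DMSO, with no change that passed (log2 -0.022 ± 0.07 SE, adjusted p = 0.843). FANCB, a partner of FANCL in the catalytic module, was at 5.11 and 5.73 CPM in NGP JSK591, against 7.66 and 6.38 CPM in NGP DMSO (log2 -0.37 ± 0.12 SE, adjusted p = 0.0108). FANCB was at 7.07 and 6.18 CPM in CHLA-20 JSK591, against 6.66 and 6.37 CPM in CHLA-20 DMSO (log2 0.026 ± 0.12 SE, adjusted p = 0.895). FANCC, which forms a module with FANCE and FANCF, was at 30.2 and 31.0 CPM in NGP JSK591, against 30.8 and 29.5 CPM in NGP DMSO, without passing (log2 0.021 ± 0.059 SE, adjusted p = 0.818). In CHLA-20, FANCC rose, with 36.4 and 37.6 CPM in CHLA-20 JSK591, against 29.7 and 30.4 CPM in CHLA-20 DMSO (log2 0.30 ± 0.058 SE, adjusted p = 1.96e-05). FANCF, of the same module, was at 26.2 and 25.7 CPM in NGP JSK591, against 24.8 and 24.7 CPM in NGP DMSO (log2 0.068 ± 0.065 SE, adjusted p = 0.447). FANCF was at 16.5 and 17.6 CPM in CHLA-20 JSK591, against 18.7 and 20.1 CPM in CHLA-20 DMSO (log2 -0.18 ± 0.071 SE, adjusted p = 0.0336). FANCM, a translocase that anchors the complex to DNA, was at 14.2 and 14.0 CPM in NGP JSK591, against 16.6 and 16.5 CPM in NGP DMSO, a fall of log2 -0.23 ± 0.079 (SE, adjusted p = 0.0147). FANCM was at 14.9 and 16.7 CPM in CHLA-20 JSK591, against 15.5 and 16.1 CPM in CHLA-20 DMSO, with no change that passed (log2 -0.003 ± 0.078 SE, adjusted p = 0.993). UBE2T was at 103 and 108 CPM in NGP JSK591, against 100.4 and 102 CPM in NGP DMSO (log2 0.063 ± 0.042 SE, adjusted p = 0.259). UBE2T was at 135 and 141 CPM in CHLA-20 JSK591, against 151 and 145 CPM in CHLA-20 DMSO (log2 -0.10 ± 0.04 SE, adjusted p = 0.0433). The CHLA-20 falls of UBE2T and FANCF passed in 2 and 7 of 16 alternatives (-0.14 to -0.069 and -0.24 to -0.11), UBE2T in none that left out a library. FANCF did not pass without DMSO replicate 2 (-0.11, adjusted p = 0.41) or JSK591 replicate 1 (-0.14, adjusted p = 0.252) or any of NGP DMSO replicate 1, NGP DMSO replicate 2 and NGP JSK591 replicate 1. In NGP, FANCB did not pass without DMSO replicate 1 (-0.26, adjusted p = 0.187) or JSK591 replicate 1 (-0.31, adjusted p = 0.101), FANCM without JSK591 replicate 2 (-0.22, adjusted p = 0.0858), while FANCA passed as lower without JSK591 replicate 1 (-0.21, adjusted p = 0.0119). FANCG in CHLA-20 was -0.057 (adjusted p = 0.388) once the trend with GC content was removed. With the same correction FANCA passed as lower in NGP (-0.15, adjusted p = 0.0134).

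FANCD2, the clamp subunit whose ubiquitination marks an active pathway, did not pass in any comparison, whereas its partner FANCI fell. FANCD2 was at 57.9 and 55.7 CPM in NGP JSK591, against 60.2 and 56.8 CPM in NGP DMSO. FANCD2 was at 62.5 and 60.6 CPM in CHLA-20 JSK591, against 61.7 and 60.6 CPM in CHLA-20 DMSO. Libraries of both treatments overlapped in each line, and the changes were log2 -0.041 ± 0.049 (SE, adjusted p = 0.55) in NGP and log2 0.0091 ± 0.048 (SE, adjusted p = 0.912) in CHLA-20. FANCI was at 112 and 114 CPM in NGP JSK591, against 150.2 and 139.6 CPM in NGP DMSO. FANCI was at 94.1 and 96.1 CPM in CHLA-20 JSK591, against 111 and 108 CPM in CHLA-20 DMSO. It was lower in all 4 JSK591 libraries, by log2 -0.36 ± 0.042 (SE, adjusted p = 1.8e-10) in NGP and log2 -0.20 ± 0.043 (SE, adjusted p = 7.93e-05) in CHLA-20. SLX4, a scaffold of structure-specific nucleases, rose in NGP, with 15.7 and 15.8 CPM in NGP JSK591, against 12.5 and 12.5 CPM in NGP DMSO (log2 0.34 ± 0.079 SE, adjusted p = 0.000479). SLX4 was at 19.0 and 19.7 CPM in CHLA-20 JSK591, against 19.3 and 20.3 CPM in CHLA-20 DMSO (log2 -0.035 ± 0.071 SE, adjusted p = 0.747), with overlapping groups.

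The checkpoint kinases did not move together. ATM, activated by breaks, was at 34.6 and 33.2 CPM in NGP JSK591, against 30.1 and 26.9 CPM in NGP DMSO. ATM was at 62.8 and 60.7 CPM in CHLA-20 JSK591, against 45.4 and 43.4 CPM in CHLA-20 DMSO. It rose in both lines, by log2 0.25 ± 0.059 (SE, adjusted p = 0.00056) in NGP and log2 0.48 ± 0.052 (SE, adjusted p = 2.21e-11) in CHLA-20. CHEK2, the kinase that ATM activates, was at 37.5 and 36.9 CPM in NGP JSK591, against 41.7 and 41.1 CPM in NGP DMSO. CHEK2 was at 26.9 and 25.9 CPM in CHLA-20 JSK591, against 31.1 and 28.0 CPM in CHLA-20 DMSO. It fell by log2 -0.16 ± 0.056 (SE, adjusted p = 0.024) in NGP and log2 -0.16 ± 0.061 (SE, adjusted p = 0.0308) in CHLA-20. ATR, which responds to single-stranded DNA, was at 32.8 and 34.0 CPM in NGP JSK591, against 38.0 and 34.6 CPM in NGP DMSO. ATR was at 35.1 and 32.5 CPM in CHLA-20 JSK591, against 36.9 and 37.1 CPM in CHLA-20 DMSO. All 4 JSK591 libraries of ATR were below DMSO, by amounts that did not pass, log2 -0.12 ± 0.058 (SE, adjusted p = 0.106) in NGP and log2 -0.13 ± 0.058 (SE, adjusted p = 0.075) in CHLA-20. With the GC trend removed, the CHLA-20 value of ATR was -0.17 and passed (adjusted p = 0.0115). CHEK1, the kinase that ATR activates, was at 40.6 and 41.8 CPM in NGP JSK591, against 47.2 and 48.5 CPM in NGP DMSO. CHEK1 was at 63.7 and 65.7 CPM in CHLA-20 JSK591, against 59.8 and 55.9 CPM in CHLA-20 DMSO. It fell in NGP (log2 -0.22 ± 0.052 SE, adjusted p = 0.000632) and rose in CHLA-20 (log2 0.16 ± 0.049 SE, adjusted p = 0.00596), without overlap of the groups in either. The NGP rise of ATM did not pass without NGP DMSO replicate 2 (0.16, adjusted p = 0.0925), the CHLA-20 rise of CHEK1 not without DMSO replicate 2 (0.14, adjusted p = 0.0778) or JSK591 replicate 2 (0.14, adjusted p = 0.0823). CHEK2 passed in 11 of 16 alternatives in NGP and 6 of 16 in CHLA-20, without DMSO replicate 1 at -0.17 (adjusted p = 0.0532) in NGP and -0.08 (adjusted p = 0.471) in CHLA-20. It also missed in NGP without JSK591 replicate 2 (-0.14, adjusted p = 0.132), and in CHLA-20 without JSK591 replicate 1 (-0.19, adjusted p = 0.0596), JSK591 replicate 2 (-0.13, adjusted p = 0.212), NGP DMSO replicate 1, NGP DMSO replicate 2 or NGP JSK591 replicate 1. ATR passed in CHLA-20 without JSK591 replicate 1 (-0.18) and in NGP without DMSO replicate 2 (-0.20, adjusted p = 0.0233).

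Across roles, 6 genes rose in both lines (BRCA2, PALB2, RAD51D, RAD51AP1, XRCC2 and ATM), where 5.72% of all genes tested did, and 5 fell in both (BARD1, FANCE, FANCG, FANCI and CHEK2), where 8.98% did. EXO1 and CHEK1 fell in NGP and rose in CHLA-20, as did 1.92% of all genes, and none of the 35 did the opposite, as did 2.38%. RAD54B, RAD50, FANCD2 and ATR passed in neither line, as did 43.4% of all genes. Calls that passed in all 16 alternatives were, in NGP, the rises of FANCL, RAD51AP1, SLX4 and XRCC2 and the falls of BARD1, CHEK1, EXO1, FANCE, FANCG, FANCI, RAD51B and RBBP8. In CHLA-20 they were the rises of ATM, BLM, BRCA2, BRIP1, EXO1, FANCC, RAD51C and XRCC2 and the falls of BARD1, FANCA, FANCE and FANCI.

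The responses of 17 of the 35 genes differed between the lines by the test of the difference itself, where 27.7% of all genes tested did. The NGP change was the lower one for 11 of them and the higher one for 6; over all genes the lower direction was called for 12.5% and the higher for 15.2%. The median difference over the 35 genes was -0.071, against 0.028 over all genes. Without NGP DMSO replicate 2 the median of the 35 was -0.1385, without NGP JSK591 replicate 1 it was -0.1291, and that over all genes was below 0 under 6 of 15 alternatives, down to -0.0414 with the GC trend removed. EXO1 (log2 -0.24 in NGP and 0.17 in CHLA-20) differed by log2 -0.42 ± 0.059 (SE, adjusted p = 8.91e-08). CHEK1 (-0.22 in NGP and 0.16 in CHLA-20) differed by log2 -0.38 ± 0.071 (SE, adjusted p = 3.01e-05). BLM (-0.11 and 0.33) differed by log2 -0.44 ± 0.07 (SE, adjusted p = 1.46e-06), the largest difference of the 35. BRCA2 rose in both lines and by less in NGP (0.22 and 0.60), with a difference of log2 -0.38 ± 0.083 (SE, adjusted p = 0.000299). FANCC differed by log2 -0.28 ± 0.083 (SE, adjusted p = 0.00769) and BRIP1 by log2 -0.24 ± 0.062 (SE, adjusted p = 0.00205). Those 6 differences passed in all 15 alternatives. RBBP8 differed by log2 -0.25 ± 0.063 (SE, adjusted p = 0.0018), RAD52 by log2 -0.29 ± 0.11 (SE, adjusted p = 0.0348) and RAD51C by log2 -0.23 ± 0.084 (SE, adjusted p = 0.0364). ATM differed by log2 -0.23 ± 0.079 (SE, adjusted p = 0.0246) and FANCI by log2 -0.15 ± 0.06 (SE, adjusted p = 0.0465), so the rise of ATM was smaller and the fall of FANCI larger in NGP. In the other direction, FANCL differed by log2 0.41 ± 0.10 (SE, adjusted p = 0.00159), SLX4 by log2 0.37 ± 0.11 (SE, adjusted p = 0.0058) and FANCA by log2 0.30 ± 0.077 (SE, adjusted p = 0.00175). FANCF (log2 0.25 ± 0.097 SE, adjusted p = 0.0427), RAD54L (log2 0.21 ± 0.081 SE, adjusted p = 0.0406) and UBE2T (log2 0.16 ± 0.059 SE, adjusted p = 0.0302) were closer to the threshold. For XRCC2, FANCE and BARD1 the differences were -0.064 ± 0.072, -0.13 ± 0.083 and -0.071 ± 0.091 (SE) and did not pass, which does not show the changes to be equal. With the GC trend removed the difference of FANCE was -0.35 and passed (adjusted p = 0.000529), as did that of FANCG at -0.23 (adjusted p = 0.00618), against -0.012 without that correction. Single libraries decided FANCL (0.30 without NGP DMSO replicate 2, adjusted p = 0.0509), FANCA (0.16 without NGP JSK591 replicate 1, adjusted p = 0.178), SLX4 (0.29 without CHLA-20 DMSO replicate 2, adjusted p = 0.0714) and RBBP8 (-0.18 without CHLA-20 JSK591 replicate 2, adjusted p = 0.0728). RAD51C passed in 8 of 15 alternatives, RAD52 in 8, FANCI in 8, ATM in 10, FANCF and UBE2T in 5 each and RAD54L in 3. RAD54L did not pass when any 1 of the 8 libraries was left out, UBE2T passed only without CHLA-20 JSK591 replicate 2, and FANCF passed only without CHLA-20 DMSO replicate 1 or CHLA-20 JSK591 replicate 2. NGP DMSO replicate 1 and NGP JSK591 replicate 2 each decided RAD51C, RAD52, FANCI and ATM. CHLA-20 JSK591 replicate 1 decided RAD52, FANCI and ATM, CHLA-20 JSK591 replicate 2 decided RAD51C, RAD52 and FANCI, and CHLA-20 DMSO replicate 1 decided RAD51C and RAD52. NBN (-0.21, adjusted p = 0.0474) and FANCE (-0.24, adjusted p = 0.05) newly passed without CHLA-20 DMSO replicate 2, and FANCB (-0.57, adjusted p = 0.0158) without NGP DMSO replicate 2. None of the 6 higher calls passed in every alternative, and once values were corrected for GC content they were 2. FANCA was then 0.15 (adjusted p = 0.136), SLX4 0.17 (adjusted p = 0.263), RAD54L 0.11 (adjusted p = 0.34) and FANCF 0.23 (adjusted p = 0.0545). With that correction the split over all genes was 2016 higher and 3393 lower, in place of 2950 higher and 2418 lower. Higher calls were 2 without CHLA-20 DMSO replicate 2, NGP DMSO replicate 2 or NGP JSK591 replicate 1. They were 3 without CHLA-20 JSK591 replicate 1, NGP DMSO replicate 1 or NGP JSK591 replicate 2. Lower calls were 7 without CHLA-20 JSK591 replicate 2, NGP DMSO replicate 1 or NGP JSK591 replicate 2.

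**Figure D4:**
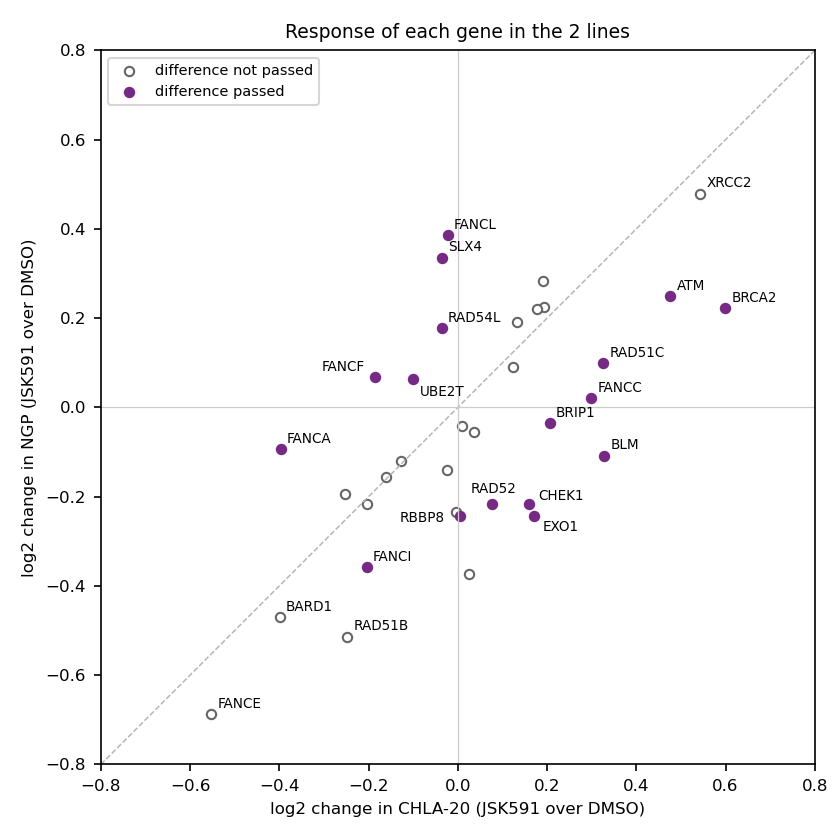
Log2 change with JSK591 in NGP (vertical) against CHLA-20 (horizontal) for the 35 genes; filled points passed the test of the difference between lines and the dashed line marks equal changes. XRCC2, FANCE and BARD1 lie near the dashed line, BRCA2, ATM, BLM, CHEK1 and EXO1 below it, and FANCL, SLX4 and FANCA above it.

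Genes of S phase and mitosis were read beside the members as markers of dividing cells. In bulk RNA, fewer cells in a phase and less RNA per cell cannot be told apart. Of 28 S phase reference genes, 9 rose and 10 fell in NGP (median 0.0056) and 18 rose and 2 fell in CHLA-20 (median 0.19). Over all genes tested, 16.8% rose and 19.4% fell in NGP and 16.9% rose and 22.4% fell in CHLA-20, which also holds as background for the lists that follow. Their CPM summed to 3584 and 3648 in NGP JSK591, against 3639 and 3680 in NGP DMSO, and to 3594 and 3549 in CHLA-20 JSK591, against 3221 and 3226 in CHLA-20 DMSO. The sums of JSK591 and DMSO overlapped in NGP and not in CHLA-20. For 15 of the 28 genes the NGP change was the lower one by the test of the difference, with 3 in the other direction. The S phase genes that rose most were CCNE1, the cyclin of S phase entry (0.68 in NGP and 0.58 in CHLA-20), FEN1, the flap nuclease (0.43 and 0.62), CCNE2 in NGP (0.42) and CDC6, which loads the replicative helicase, in CHLA-20 (0.57). Those that fell most were GINS4 (-0.37), the ligase LIG1 (-0.29) and the polymerase gene POLA1 (-0.23) in NGP, and the licensing factor CDT1 (-0.43) and POLD1 (-0.41) in CHLA-20. Of 18 mitosis genes, 14 fell and 1 rose in NGP (median -0.22), and 13 fell and none rose in CHLA-20 (median -0.14). TOP2A, which untangles chromosomes, was at 806 and 799 CPM in NGP JSK591, against 1050 and 996 CPM in NGP DMSO. TOP2A was at 889 and 919 CPM in CHLA-20 JSK591, against 1327 and 1311 CPM in CHLA-20 DMSO (-0.35 and -0.55). KIF2C fell by 0.35 and 0.38, CCNA2 by 0.42 in NGP and CDC20 by 0.36 in CHLA-20, while CENPF rose in NGP (0.096). Mitosis genes summed to 3047 and 3061 CPM in NGP JSK591, against 3627 and 3540 CPM in NGP DMSO, and to 3975 and 4059 CPM in CHLA-20 JSK591, against 4788 and 4757 CPM in CHLA-20 DMSO. The 35 recombination and Fanconi genes summed to 1513 and 1521 CPM in NGP JSK591, against 1630 and 1579 CPM in NGP DMSO, and to 1601 and 1642 CPM in CHLA-20 JSK591, against 1555 and 1527 CPM in CHLA-20 DMSO. The part of the phases in the changes of single members was not tested.

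Other genes of the same pathways were counted for comparison, 47 genes of recombination, crosslink repair and checkpoints and 10 of end joining. Of the 47, 45 were tested, with MDC1 at 0 counts and FAN1 at 1 to 8 counts in a library. Reads that overlapped several genes or mapped to several places were left out of gene counts. Counts near 0, here and for NHEJ1 below, therefore do not show that a gene was not expressed, and their cause was not tested. In NGP 12 rose and 13 fell (median 0.039), and in CHLA-20 18 rose and 10 fell (median 0.11). SWI5, which assists strand exchange in a complex with SFR1, fell in both lines, with 4.62 and 5.12 CPM in NGP JSK591, against 9.09 and 9.95 CPM in NGP DMSO (-0.97). SWI5 was at 5.68 and 6.10 CPM in CHLA-20 JSK591, against 9.26 and 7.85 CPM in CHLA-20 DMSO (-0.54). BRCC3, the deubiquitinase of a BRCA1-containing complex, rose in both, with 8.11 and 8.55 CPM in NGP JSK591, against 6.38 and 6.62 CPM in NGP DMSO (0.36). BRCC3 was at 18.9 and 19.0 CPM in CHLA-20 JSK591, against 13.4 and 12.4 CPM in CHLA-20 DMSO (0.55). UIMC1, the ubiquitin-binding subunit of that complex, fell by 0.46 in NGP, and BABAM1, another subunit, by 0.32 in CHLA-20. RMI2, a partner of BLM, rose by 0.51 and ETAA1, an activator of ATR, by 0.41 in NGP. HUS1, part of the clamp that activates ATR, fell by 0.45 in NGP. In CHLA-20, TIPIN, of the fork protection complex, rose by 0.58 and RIF1, which limits resection, by 0.36, and the nuclease subunit ERCC1 fell by 0.36. Of the 10 end joining genes, NHEJ1 was not tested (0 to 11 counts), and of the other 9, 2 rose and 3 fell in NGP and 4 rose and 2 fell in CHLA-20. LIG4, the ligase of that pathway, rose in both lines, with 14.3 and 14.8 CPM in NGP JSK591, against 10.1 and 9.44 CPM in NGP DMSO (0.58). LIG4 was at 22.7 and 22.9 CPM in CHLA-20 JSK591, against 15.7 and 17.5 CPM in CHLA-20 DMSO (0.46). POLL, a gap-filling polymerase, fell in both (-0.30 and -0.59). PRKDC, the DNA-dependent protein kinase, fell in NGP (-0.10) and rose in CHLA-20 (0.15), a difference of -0.25 ± 0.053 (SE, adjusted p = 0.00023). PAXX rose by 0.28 and XRCC4 fell by 0.24 in NGP, and XRCC5 rose by 0.14 and POLM fell by 0.22 in CHLA-20. The 3 falls in NGP were 1 with total count scaling, without the filter or with at least 10 counts in every library.

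Without inhibitor, the lines differed in most of these genes, about as often as over all genes tested, and furthest in RAD51C. In NGP DMSO against CHLA-20 DMSO, 15 of the 35 genes were higher and 12 lower, where 36.6% of all genes tested were higher and 38.9% lower (75.5% in all). Libraries of the lines did not overlap for 30 of the 35, and for 86.6% of all genes. The difference reached 2-fold for RAD51C, RAD51D, NBN and FANCE, 4 of 35, where 35.3% of all genes did. RAD51C was at 17.2 and 15.9 CPM in NGP DMSO, against 81.8 and 82.3 CPM in CHLA-20 DMSO, 0.202-fold (log2 -2.31 ± 0.058 SE, adjusted p = 5.28e-43). RAD51D was at 13.6 and 12.1 CPM in NGP DMSO, against 28.6 and 27.6 CPM in CHLA-20 DMSO (log2 -1.13 ± 0.072 SE, adjusted p = 7.21e-22). NBN was higher in NGP, at 90.9 and 87.0 CPM in NGP DMSO, against 34.8 and 37.4 CPM in CHLA-20 DMSO (log2 1.30 ± 0.05 SE, adjusted p = 5.27e-33). FANCE was higher there too, at 66.5 and 67.4 CPM in NGP DMSO, against 27.1 and 29.5 CPM in CHLA-20 DMSO (log2 1.24 ± 0.055 SE, adjusted p = 1.35e-29). BLM (log2 0.79 ± 0.05 SE, adjusted p = 4.84e-22), BRCA2 (log2 0.67 ± 0.061 SE, adjusted p = 1.9e-15) and BARD1 (log2 0.54 ± 0.061 SE, adjusted p = 9.01e-12) were the next higher ones in NGP. SLX4 (log2 -0.67 ± 0.077 SE, adjusted p = 1.11e-11), ATM (log2 -0.64 ± 0.058 SE, adjusted p = 1.93e-15) and FANCL (log2 -0.57 ± 0.075 SE, adjusted p = 6.64e-10) were the next lower ones. CHEK1 was lower in NGP (log2 -0.27 ± 0.051 SE, adjusted p = 2.2e-06) and CHEK2 higher (log2 0.49 ± 0.058 SE, adjusted p = 3.34e-11), and BRCA1 was lower (log2 -0.35 ± 0.043 SE, adjusted p = 7.74e-11). PALB2 (0.0012), FANCD2 (-0.065) and ATR (-0.028) did not pass. Of the 5 resection genes 4 were higher in NGP and none lower, and of the 5 paralogs 1 was higher and 4 lower. All 16 alternatives kept every call that had passed but those of RAD51B (0.26, adjusted p = 0.0479, and 0.22 to 0.35 with 8 of 16 passing) and of XRCC3, whose -0.41 became 0.066 (adjusted p = 0.416) with the GC trend removed. FANCA had not passed (0.07, adjusted p = 0.231) but was higher in NGP with the GC trend removed (0.28, adjusted p = 1.82e-06). Its value was 0.11 without NGP JSK591 replicate 1.

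Genes around the members were read in the same comparison, up to 10 tested protein-coding genes on each side. These neighbours spanned 0.777 megabases (FANCA) to 10.7 megabases (RBBP8), so many are not adjacent. Around RAD51D the span was 4.92 megabases. Over all genes tested, 38.9% were lower and 36.6% higher in NGP. Near RAD51D, at chr17:35092208-35121522 (GRCh38), 18 of 20 neighbours were lower in NGP, with a median of -2.02 against -1.13 for RAD51D. For RAD51C, further along the same chromosome at chr17:58692573-58735611, 12 neighbours were lower and 6 higher, with a median of -0.28 against -2.31. The neighbours of ATM (chr11:108222484-108369102) had a median of -0.76, with 14 of 20 lower, and those of CHEK1 (chr11:125625136-125676255) one of -0.998, with 17 of 20 lower, against -0.64 and -0.27 for the genes themselves. The neighbours of XRCC2 had a median of -0.79, with 16 of 20 lower, against -0.51 for XRCC2, and those of RAD52 one of -0.74, with 12 of 16 lower, against -0.41 for RAD52. RAD51AP1 was higher in NGP (0.21) among neighbours with a median of -0.95, 16 of 20 of them lower. NBN (1.30) and BLM (0.79) stood above neighbours with medians of -0.26 and -0.19, and FANCE (1.24) above a median of 0.44. A median of neighbours describes the surrounding level and was not tested.

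**Figure D5:**
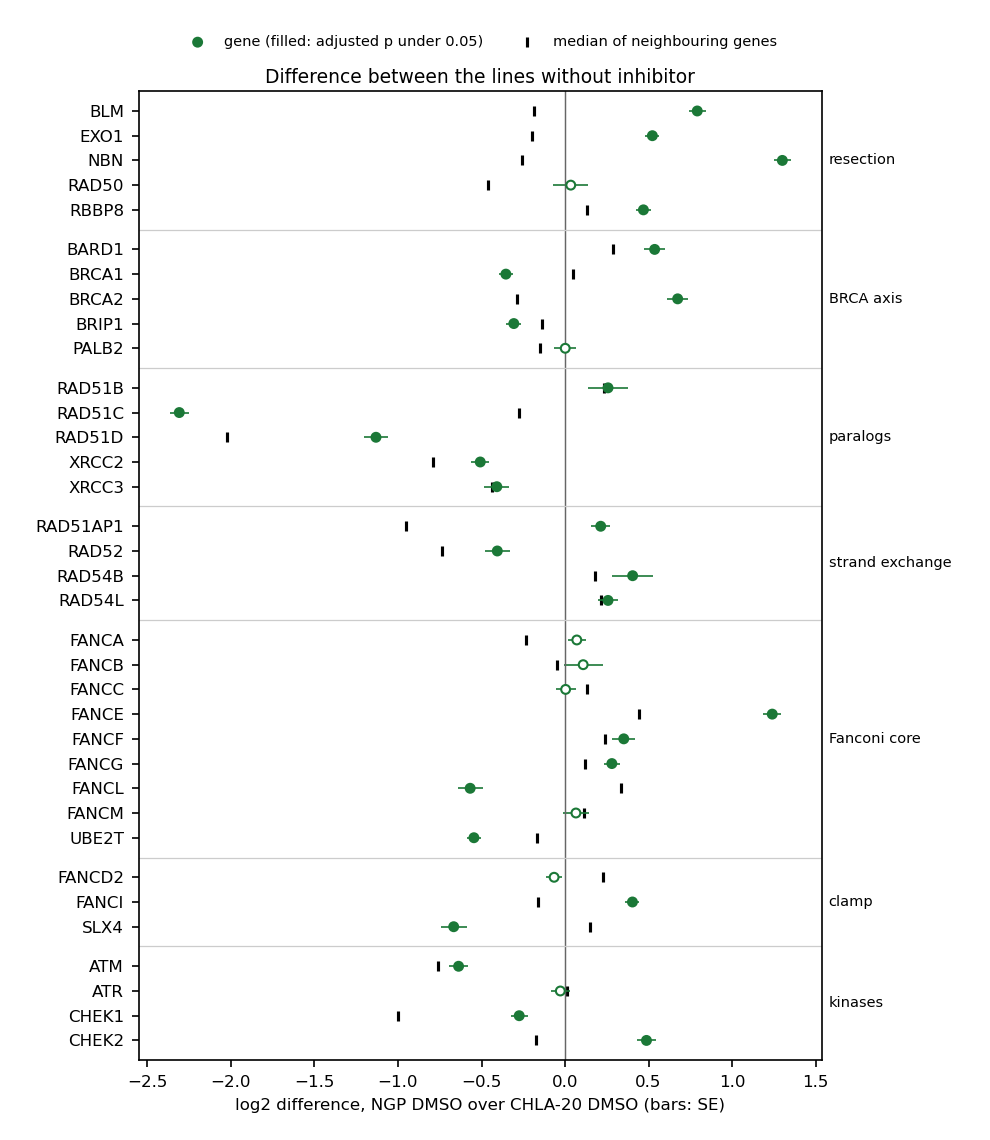
Log2 difference of NGP DMSO over CHLA-20 DMSO for each gene, by role (points, filled where the adjusted p is under 0.05, bars are SE), and the median of its up to 20 neighbouring genes (ticks). RAD51C lies far below and NBN far above their neighbours, and RAD51D, ATM, CHEK1, XRCC2, RAD52 and RAD51AP1 are among those with neighbours that are lower in NGP.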

How the data were processed

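RNA of 8 libraries was sequenced, 2 in each of 4 groups. The authors deposited whole-number counts of reads per gene for each library, with no normalization; per the submitters' processing notes, STAR, HTSeq, DESeq2 and the build GRCh38/hg38 were used, with versions and the strand setting not given in the sources used here. Reads that overlapped several genes or mapped to several places stood in separate summary rows of the deposited files, outside the gene counts (5.15% to 6.86% with no gene, 6.77% to 7.18% ambiguous, 19.2% to 22% not unique), and these rows stayed out of library sizes and tests. Gene names, positions and lengths came from GENCODE release 29.

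From the counts, edgeR 4.0.16 in R 4.3.3 kept 19395 genes (filterByExpr), scaled libraries with TMM and fitted its quasi-likelihood model to all 8 libraries by group, with 4 residual degrees of freedom. P-values were adjusted by Benjamini and Hochberg over all genes tested, with a threshold of 0.05. The standard error (SE) of a log2 change was its size over the square root of its F statistic. The fit was tested on simulated data. Alternatives were other scalings, other filters on low counts, DESeq2 1.42.0, the replicate number as a block, removal of the trend with GC content, a fit to the compared groups only, and leaving out each library.

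The 35 genes and the other lists were chosen with earlier results of these data known. Genes named in full were, for each comparison, the 5 largest changes past the threshold in each direction, every gene past the test of the difference between lines, and always ATM, ATR, CHEK1, CHEK2, BRCA1, BRCA2, PALB2 and FANCD2; for the other lists the 3 largest in each direction and line. The remaining members are given as context, and MRE11 as a partner outside the lists. Some genes are not reported here.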

Additional observations from a re-analysis of the deposited data

Results flagged for a closer look

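The log2 change with JSK591 differed between the lines for 17 of the 35 genes by the test of the difference itself in edgeR's quasi-likelihood fit (NGP change minus CHLA-20 change, adjusted p under 0.05). Over all genes tested, 27.7% differed, with the NGP change lower for 12.5% and higher for 15.2%. The NGP change was the lower one for 11 genes. The largest of these log2 differences were BLM -0.44 (-0.11 in NGP, 0.33 in CHLA-20), EXO1 -0.42 (-0.24 in NGP, 0.17 in CHLA-20), CHEK1 -0.38 (-0.22 in NGP, 0.16 in CHLA-20), BRCA2 -0.38 (0.22 in NGP, 0.60 in CHLA-20), RAD52 -0.29 (-0.22 in NGP, 0.076 in CHLA-20) and FANCC -0.28 (0.021 in NGP, 0.30 in CHLA-20). The others were RBBP8 -0.25 (-0.24 in NGP, 0.0054 in CHLA-20), BRIP1 -0.24 (-0.035 in NGP, 0.21 in CHLA-20), ATM -0.23 (0.25 in NGP, 0.48 in CHLA-20), RAD51C -0.23 (0.10 in NGP, 0.33 in CHLA-20) and FANCI -0.15 (-0.36 in NGP, -0.20 in CHLA-20). The NGP change was the higher one for 6 genes, with log2 differences of FANCL 0.41 (0.39 in NGP, -0.022 in CHLA-20), SLX4 0.37 (0.34 in NGP, -0.035 in CHLA-20), FANCA 0.30 (-0.093 in NGP, -0.40 in CHLA-20), FANCF 0.25 (0.068 in NGP, -0.18 in CHLA-20), RAD54L 0.21 (0.18 in NGP, -0.036 in CHLA-20) and UBE2T 0.16 (0.063 in NGP, -0.10 in CHLA-20). Differences passed in all 15 alternatives for BLM, BRCA2, BRIP1, CHEK1, EXO1 and FANCC. None of the 6 with the higher change in NGP did so. S phase reference genes differed between the lines in the same comparison, 15 of 28 with the lower change in NGP and 3 with the higher, and their part in these differences was not tested.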

How the results depend on the processing

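Of the alternative values of counts and medians, 255 stayed within the limits used (1.5 times for a count) and 30 did not. Of 2205 alternative values of single members, 2016 kept their side of the threshold (77 of these changed sign while passing in neither setting), 166 no longer passed, 21 newly passed and 2 changed sign where 1 of the values passed. Members lower in CHLA-20 were 5 in place of 8 with total count scaling, without the filter, with DESeq2 and with only the compared groups. For the difference between lines, the higher members were 3 in place of 6 with DESeq2-style size factors or without the filter, and 2 with DESeq2 or with the GC trend removed, and the lower members 7 in place of 11 without the filter. The mitosis gene higher in NGP (1) was lost (0) with DESeq2-style size factors, without the filter and with DESeq2, and end joining genes lower in NGP were 1 in place of 3 with total count scaling, without the filter or with at least 10 counts in every library. Leaving out single libraries gave 6 to 10 higher and 9 to 15 lower members in NGP, 8 to 13 and 5 to 7 in CHLA-20, and 2 to 5 and 7 to 13 for the difference, and an NGP median of -0.1164 to -0.0116. With the GC trend removed, XRCC3 reversed in the difference (-0.2758, adjusted p = 0.0326) and between the lines (0.0659, adjusted p = 0.416); the cause was not tested.

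Labels give the groups the same replicate numbers, but over all genes tested same-numbered libraries did not deviate together (correlations of -0.027 to 0.012). The correlation weighs all genes alike, and a batch that moved only some of them was not tested. With the replicate block, 3256 genes were higher and 3757 lower in NGP and 3275 and 4369 in CHLA-20, and the only member to change its call was RAD51B between the lines (0.2572, adjusted p = 0.0513). Libraries of a group differed by more than counting error (chi-square over its degrees of freedom 2.11 to 3.25).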
